A study of Mus musculus with 2 samples.

Results

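Mir335, Mir483, Mir675, Mir296 and Mir298 are the 5 microRNA genes described here, out of 1973 genes in the count tables. They were chosen by symbol, as genes that lie at imprinted loci other than the Dlk1-Dio3 region. Their counts were not part of the rule, though earlier results of these data were known. Each of the 5 symbols matched 1 row. The counts come from microRNA sequencing, which reads small RNAs after adapters have been joined to their ends. The RNA was total RNA of the hindbrain on postnatal day 0, from mice of the strain B6NCrl. The single group holds 2 libraries, from 1 hindbrain each of pup 3 and pup 1, with a labelled size range under 30 nt. The labels give no treatment or altered allele, state that sex was not collected, and give both pups the same donor code. Same-strand gene counts came to 3012320 in pup 3 and 2459757 in pup 1. The question the data address is how much of each microRNA this tissue held at birth and how far the pups differed. No condition was compared.

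An imprinted gene is read mainly from the chromosome inherited from 1 parent. In most tissues, though not in all, Mest and Igf2 are known to be expressed from the paternal chromosome and H19 from the maternal one. Mir296 and Mir298 have been linked to the paternally expressed antisense transcript Nespas of the Gnas locus. A microRNA is cut from a hairpin precursor, and bases 2 to 8 of the mature strand, the seed, pair with target messenger RNAs. No allele was measured in these libraries, so the counts do not show which parental chromosome they came from.

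All 5 genes had mature and hairpin sequences in the RefSeq table (GRCm38.p6, the assembly also called mm10). The mature sequences are shown, with the seed in capitals, because the seed sets which targets a microRNA can pair with and because a sequence held at a single locus is one whose reads these tables count.
mmu-miR-335-5p: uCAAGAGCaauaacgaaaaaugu
mmu-miR-335-3p: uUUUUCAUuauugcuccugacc
mmu-miR-483-5p: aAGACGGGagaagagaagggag
mmu-miR-483-3p: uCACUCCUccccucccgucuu
mmu-miR-675-5p: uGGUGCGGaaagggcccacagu
mmu-miR-675-3p: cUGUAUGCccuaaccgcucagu
mmu-miR-296-5p: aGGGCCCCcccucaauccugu
mmu-miR-296-3p: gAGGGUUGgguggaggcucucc
mmu-miR-298-5p: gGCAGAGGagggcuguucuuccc
mmu-miR-298-3p: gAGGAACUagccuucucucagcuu

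None of these 10 seeds is the seed, at bases 2 to 8, of a mature sequence of another gene among the 1738 in the table. For comparison, 68.0% of all mature sequences in the table, and 60.4% of those from genes with at least 10 CPM (a gene's count scaled to its library's same-strand total) in both pups, have a seed held by 1 gene only. The 5 genes therefore share no seed with each other, also where they lie side by side, as Mir296 and Mir298 do. None of the 5 precursors shares an identical stretch of 20 nt with another annotated microRNA precursor on either strand. Among GENCODE M21 transcripts, each mature sequence was found in its own precursor and nowhere else, apart from miR-675-5p and miR-675-3p, which also lie in the transcript of their host H19. Multimapped reads are left out of the gene counts, and they were 42.0% of the library in pup 3 and 40.2% in pup 1. Shares and ranks below therefore set these 5 genes beside genes with shared sequences, which may be undercounted.

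The hairpins of the genes with the most and the fewest counts are shown with both mature arms in capitals, since the tables give 1 count per precursor and do not separate its arms.
Mir335: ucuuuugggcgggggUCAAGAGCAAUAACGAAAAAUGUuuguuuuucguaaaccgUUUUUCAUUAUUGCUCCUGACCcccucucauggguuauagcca
Mir675: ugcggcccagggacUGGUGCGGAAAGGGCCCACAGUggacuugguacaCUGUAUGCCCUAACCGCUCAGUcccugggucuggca
The arms are 17 nt apart in Mir335 and 12 nt apart in Mir675. GC content was 42.9% in the Mir335 precursor and 63.1% in that of Mir675, against a median of 51.0% over 1894 precursors. The precursors of Mir296, Mir483 and Mir298 had 63.3%, 58.9% and 53.7%.

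The members differed by more than 3 orders of magnitude in level. From high to low in mean CPM the order was Mir335, Mir296, Mir298, Mir483 and Mir675, and each pup gave the same order. Only the neighbours Mir296 and Mir298 overlapped in their values over the pups. CPM count reads of small RNAs of similar length and were not divided by length. Ligation can recover small RNAs unequally, and its part in the order was not tested.

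**Figure D1:**
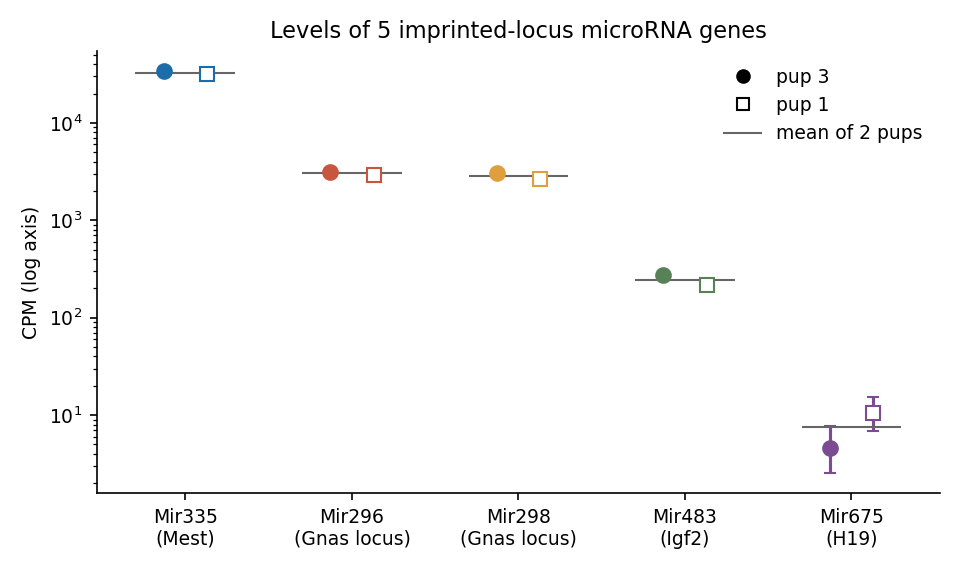
CPM (log axis) of each gene in pup 3 (filled circles) and pup 1 (open squares), with exact 95% intervals for counting error and a line at the mean of the pups. Mir335 lies near 32818 CPM, Mir296 and Mir298 lie close together at 3042 and 2824 CPM, and Mir675, at 4.65 CPM in pup 3 and 10.6 CPM in pup 1, has wide intervals that overlap between the pups, while those of the other genes do not overlap.

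Mir335 led the members by an order of magnitude. It lies on chromosome 6 (30741299 to 30741396, plus strand, mm10), in an intron of all 7 annotated Mest transcripts that span it and on their strand. Mest encodes a hydrolase-like protein of mesoderm and developing tissues, and miR-335 is known in human breast cancer as a suppressor of metastasis. Mir335 (ENSMUSG00000065501.1) had 102340 counts in pup 3 and 77882 in pup 1. Its level was 33974 CPM (exact interval 33769 to 34179) in pup 3, against 31662 CPM (31444 to 31882) in pup 1, with a mean of 32818 ± 1634 CPM (SD, n = 2, as for all later values with ±). It ranked 5 in pup 3 and 6 in pup 1 among all 1973 genes, by counts that leave out multimapped reads. By mean it stood between Mir126a, an endothelial microRNA, at 35574 ± 1920 CPM and Mir10a, encoded in a Hox cluster, at 29630 ± 8607 CPM. The next gene above was Mir487b and the next below Mir100, at 27354 ± 1297 CPM. The pups' ranges of Mir335 and Mir10a overlapped, so their order is not fixed by these libraries. Mir335 held 84.0% of the members' counts in pup 3 and 84.6% in pup 1.

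The Igf2 and H19 locus on chromosome 7 holds Mir483 and Mir675, which lie 77.8 kb apart on the minus strand. Mir483 (142654924 to 142654996, ENSMUSG00000070140.1) is in an intron of all 7 spanning transcripts of Igf2, the gene of a fetal growth factor. The same interval also lies in an intron of Gm49394, a protein-coding gene annotated across Igf2. miR-483-3p is known in human as abundant in Wilms tumour, a childhood kidney tumour. Mir483 had 833 counts in pup 3 and 532 in pup 1. Its level was 277 CPM (exact interval 258 to 296) in pup 3, against 216 CPM (198 to 235) in pup 1. Its mean was 246 ± 42.6 CPM, at rank 177. Its nearest genes in mean level were Mir666 (264 ± 32.8 CPM) and Mir7-2 (255 ± 6.25 CPM) above it, and Mir32 (235 ± 95.9 CPM) and Mir542 (225 ± 48.8 CPM) below it. The spread between the pups is wider than the steps between these genes.

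Mir675 (142577064 to 142577147, ENSMUSG00000076275.1) was the member with the fewest counts. It lies within the noncoding RNA H19, in an exon of 3 and an intron of 1 of the 4 transcripts that span it. In mouse, miR-675 is known to restrain growth of the placenta. It had 14 counts in pup 3 and 26 in pup 1. Its level was 4.65 CPM (exact interval 2.54 to 7.80) in pup 3, against 10.6 CPM (6.90 to 15.5) in pup 1, with a mean of 7.61 ± 4.19 CPM. Both libraries were above the limit that a count of 0 allows, which is 3 counts (0.996 CPM for pup 3 and 1.22 CPM for pup 1). It was the only member below 10 CPM in either pup. Its rank was 354 in pup 3 and 307 in pup 1. Of the genes nearest to it in mean level, Mir3057 and Mir193a above and Mir1969 and Mir6897 below it lay between 7.16 and 7.85 CPM.

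Mir483 therefore had more counts than Mir675 in both pups. The ratio of Mir483 to Mir675 was 59.5 (exact interval 35.3 to 109) in pup 3 and 20.5 (13.8 to 31.6) in pup 1. These intervals, which cover counting error only, did not overlap, and both lie far above 1.

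**Figure D2:**
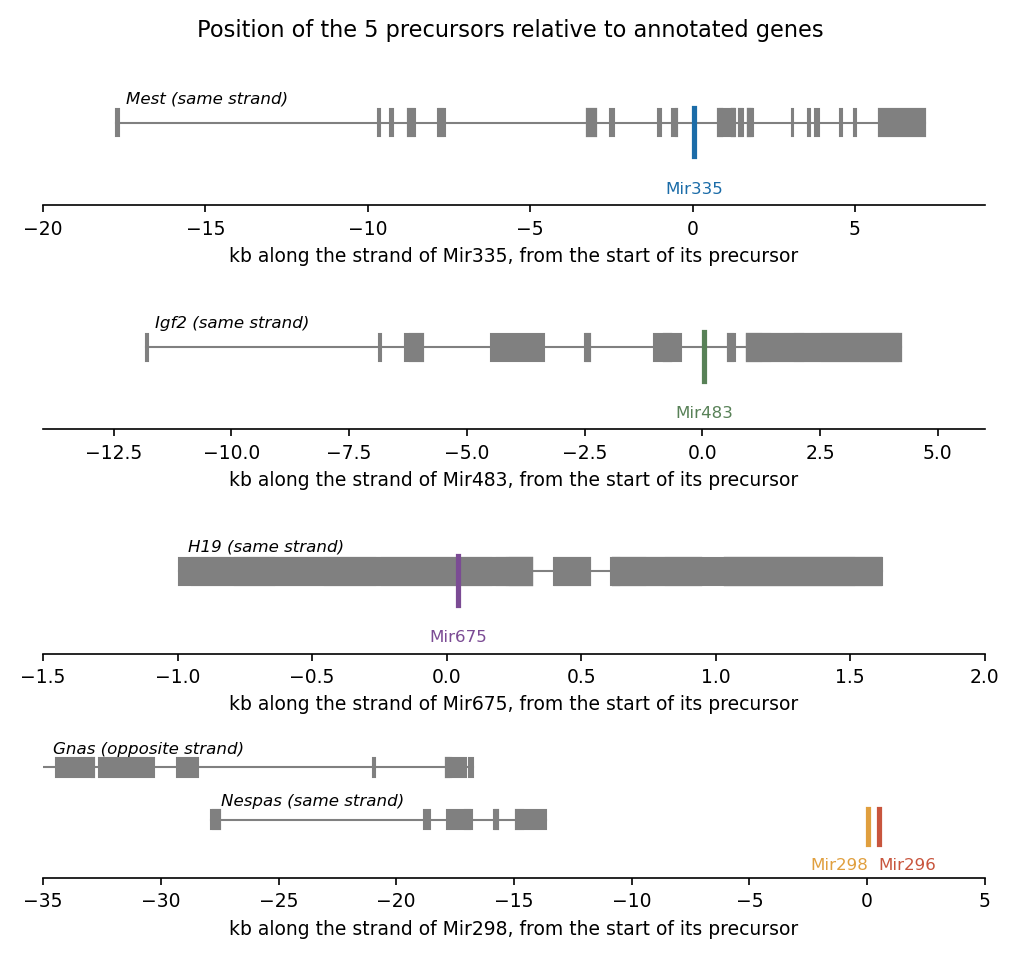
Position of each precursor (coloured bar) relative to annotated exons (grey boxes, all transcripts of a gene together), in kb along the precursor's strand from its start. Mir335 and Mir483 fall between exons of Mest and Igf2, Mir675 falls in H19, and Mir298 and Mir296 lie beyond the annotated end of Nespas.

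The pair from the Gnas locus was expressed at nearly equal levels. Mir298 (174267504 to 174267585) and Mir296 (174267047 to 174267125) lie 378 nt apart on the minus strand of chromosome 2. No other annotated gene overlaps either of them, and the annotated end of Nespas, on the same strand, lies 13.7 kb upstream of Mir298. miR-296 is known in human endothelial cells from blood vessel growth, and miR-298 has been described in mouse as binding the messenger RNA of the protease Bace1. Mir296 (ENSMUSG00000065521.1) had 9481 counts in pup 3 and 7221 in pup 1. Its level was 3147 CPM (exact interval 3084 to 3211) in pup 3, against 2936 CPM (2868 to 3004) in pup 1. Mir298 (ENSMUSG00000065410.1) had 9112 counts in pup 3 and 6450 in pup 1. Its level was 3025 CPM (2963 to 3088) in pup 3, against 2622 CPM (2559 to 2687) in pup 1. Mir296 was thus the higher of the pair in both pups, while the ranges over the pups overlapped.

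The means were 3042 ± 149.7 CPM for Mir296, at rank 63, and 2824 ± 285 CPM for Mir298, at rank 66. Between and around them stood Mir154 at 3052 ± 559 CPM, Mir323 at 2935 ± 461 CPM, Mir15a at 2862 ± 577 CPM and Mir872 at 2792 ± 294 CPM. Mir433 (3437 ± 210.2 CPM) stood above Mir154, and Mir130b (2788 ± 137 CPM) below Mir872. Mir433, Mir154 and Mir323 are genes of the Dlk1-Dio3 region.

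The ratio of Mir296 to Mir298 was 1.04 (exact interval 1.01 to 1.07) in pup 3 and 1.12 (1.08 to 1.16) in pup 1. Pairs were formed among genes that had at least 10 counts in both pups and shared no 20 nt with another precursor. Among these genes, 74 other pairs of neighbours lay within 10 kb on 1 strand. Genes left out by these filters can lie between the genes of a pair. Many of these pairs lie in the Dlk1-Dio3 region on chromosome 12, and neighbouring pairs share genes, so the pairs are not independent. Pairs were compared after the members' values were seen. The higher gene of such a pair exceeded the lower by a median of 5.64-fold, and by over 2-fold in 62 of the 74 pairs, against 1.08-fold for Mir296 and Mir298. Closer in mean level were 3 pairs, Mir764 with Mir1912 and, from the Dlk1-Dio3 region, Mir431 with Mir433 and Mir540 with Mir665. Among the 40 other pairs less than 1 kb apart, 1 was closer and the median was 5.32-fold. The exact intervals of the ratio in pup 3 and pup 1 did not overlap. The log2 folds of the pair between the pups differed by 0.11, against a median of 0.22 over the 74 pairs, of which 21 were closer.

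**Figure D3:**
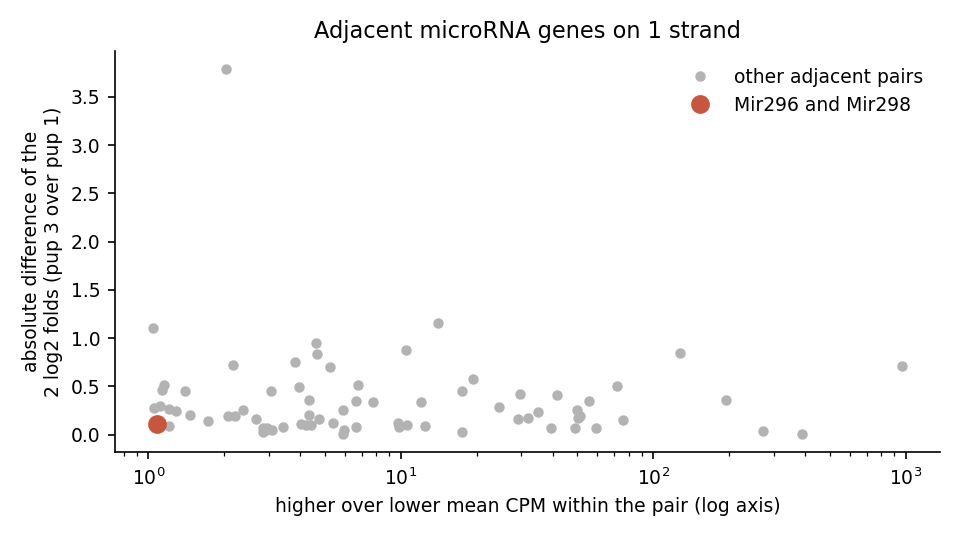
Each point is a pair of microRNA genes on 1 strand that are neighbours among the genes passing the filters. The higher over the lower mean CPM (log axis) is set against the absolute difference of their log2 folds between pup 3 and pup 1. Mir296 and Mir298 (red) lie at 1.08-fold and 0.11, near the lower left corner, where few of the 74 other pairs (grey) lie.

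Together the 5 genes held 4.04% of all gene counts (exact interval 4.02% to 4.07%) in pup 3 and 3.74% (3.72% to 3.77%) in pup 1, or 3.89% ± 0.211. Without Mir335 they held 0.612% ± 0.0473. All 5 had counts in both pups, and 4 reached 10 CPM in both. Over all 1973 genes, 642 had a count in pup 3, 619 in pup 1 and 699 in either pup, and 306 reached 10 CPM in both. The median of the 5 mean levels was 2824 CPM, and that of all 1973 genes was 0 CPM, since most genes had no count. This contrast describes the list and was not tested.

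Dlk1-Dio3 on chromosome 12, another imprinted domain with many microRNA genes, served as the comparison. Of its 59 listed genes 51 had a row, of which 44 reached 10 CPM in both pups and 3 had no count. These held 14.1% ± 0.294 of counts, with a median of 409 CPM. Its 3 highest genes were Mir487b at 51112 ± 1906 CPM, which shares 20 nt with 1 other locus, Mir127 at 13860 ± 127 CPM and Mir382 at 10017 ± 1236 CPM. Mir335 alone, at 32818 CPM, lay above 50 of the 51 genes, Mir487b being the exception. Mir296 lay above 39 and Mir298 above 38 of them, Mir483 above 21 and Mir675 above 5.

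**Figure D4:**
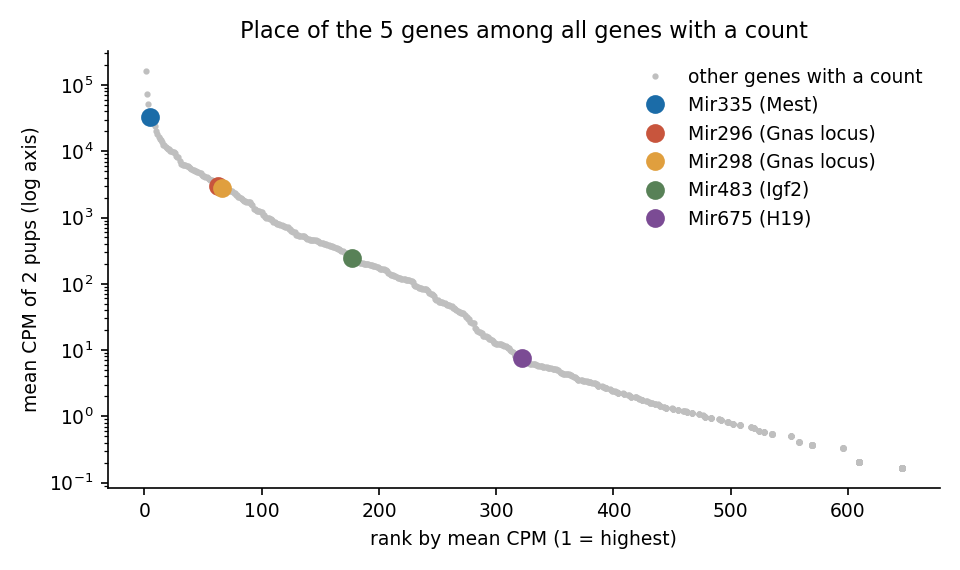
Mean CPM of the pups (log axis) against rank by mean CPM for the genes with a count, with the members in colour. Mir335 sits at rank 5 on the steep start of the curve, Mir296 and Mir298 at ranks 63 and 66, Mir483 at 177 and Mir675 at 322.

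Between the 2 libraries, counts of Mir335, Mir483 and Mir298 were higher in pup 3 and those of Mir675 lower, beyond counting error. The call for Mir296 changed with the scaling. Each gene's counts were compared by an exact binomial test given TMM-scaled totals (a scaling by the trimmed mean of ratios), two-sided, with Benjamini-Hochberg adjustment over the 395 genes that reached 10 counts in pup 3 or pup 1. The test sets 1 library against another, so it measures no effect of a condition. It called 4 of the 5 members, against 46.8% of all tested genes. Higher in pup 3 were 3 members, against 25.6% of tested genes, and lower was 1, against 21.3%.

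The sizes of these differences were small for the abundant members. Mir335 had a log2 fold, pup 3 over pup 1, of 0.05 (counting interval 0.04 to 0.06; adjusted p = 6.32e-12, exact binomial test). With plain totals its log2 fold was 0.10 and with either-strand counts 0.03, so this value depends on the scaling by more than its counting interval covers. The first value is a fold of 1.03, and 88.4% of tested genes had a larger absolute log2 fold. Mir296 had the same log2 fold of 0.05 (0.003 to 0.09; adjusted p = 0.0699, exact binomial test). Mir296 passed the exact binomial test with plain totals (log2 fold 0.10, adjusted p = 2.62e-05) and with DESeq2 size factors (0.067, adjusted p = 0.00753), and its adjusted p over all alternatives reached 0.288. The ratio of Mir335 to Mir296 was 10.8 in both pups. Mir298 had a log2 fold of 0.15 (0.11 to 0.20; adjusted p = 2.68e-10, exact binomial test), so its counting interval lay above that of Mir296.

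Mir483 had a log2 fold of 0.30 (0.14 to 0.46; adjusted p = 0.000480, exact binomial test), or 1.23-fold higher in pup 3. Mir675 had a log2 fold of -1.22 (-2.29 to -0.25; adjusted p = 0.0228, exact binomial test) and so was 0.431 times as high in pup 3 as in pup 1. Only 3.54% of tested genes had a larger absolute log2 fold than Mir675, but its fold rests on 14 and 26 counts, and its interval reaches close to 0.

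The spread between the pups over 361 genes, the common biological coefficient of variation, was 16.5%, equal to an SD of 0.34 in log2 folds. Against it, the folds of Mir335, Mir296, Mir298 and Mir483 came to 0.144, 0.141, 0.454 and 0.894 SDs. Differences that passed the counting test in 3 of these genes were thus smaller than this SD. The SD comes from the same 2 libraries, with the members among the genes, so it is no independent measure of the spread between animals. Mir675 lay at -3.61 SDs, a value that leaves out its own counting error.

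**Figure D5:**
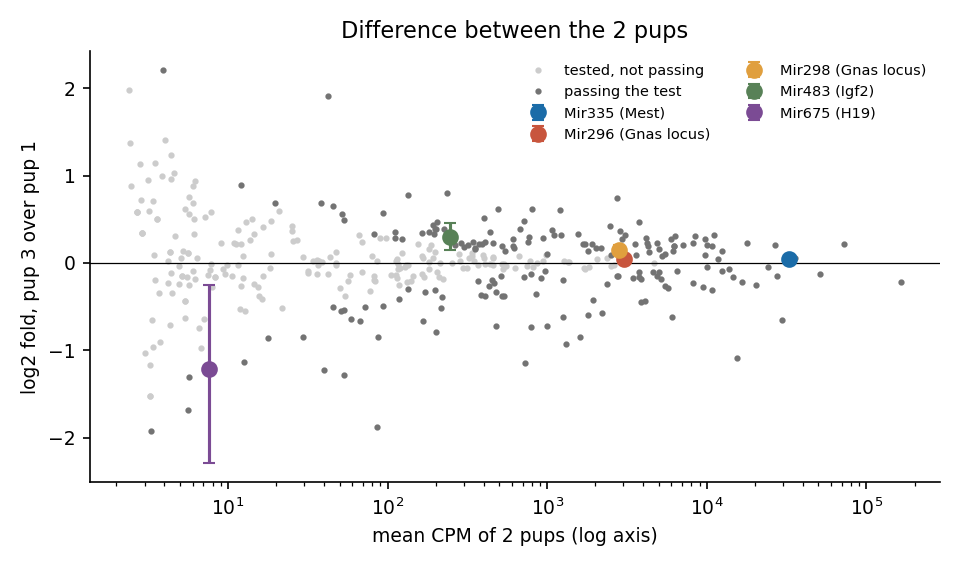
Log2 fold of pup 3 over pup 1 against mean CPM (log axis) for the 395 tested genes, dark grey where the exact binomial test passed, with the members in colour and their 95% counting intervals. Mir335, Mir296, Mir298 and Mir483 lie between 0.05 and 0.30, and Mir675 lies at -1.22 with a wide interval.

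The tissue was checked with marker lists. The hindbrain and neuronal list held 7.27% of counts in pup 3 and 9.30% in pup 1, with 6 of 9 genes at 10 CPM in both. It was led by Mir10a, known from the hindbrain and spinal cord. Of its 7 tested genes, 3 were called higher and 3 lower in pup 3. Mir10a (23544 CPM in pup 3, 35716 CPM in pup 1), Mir10b (10196 and 20858 CPM) and Mir149 (15600 and 17477 CPM) were lower. Among those called higher were Mir137 (13229 and 11588 CPM) and Mir128-1 (6622 and 5291 CPM). Mir124a-2 and Mir124a-3 lay below 10 CPM and share 20 nt with 2 other loci each. Multimapped reads are left out of the counts, and their part in these values was not tested. Lists for other cell types also held counts, which do not by themselves show that those cells were present. The choroid plexus list, with 5 of 6 genes at 10 CPM, held 1.16% in pup 3 and 1.27% in pup 1, and the endothelial gene Mir126a held 3.69% in pup 3 and 3.42% in pup 1. The smooth muscle and mesenchyme list, with 4 of 6 genes at 10 CPM, held 0.999% in pup 3 and 0.784% in pup 1. The blood list held 0.0334% in pup 3 and 0.0320% in pup 1, with all 3 genes at 10 CPM. Its genes moved apart, with Mir451a at 37.5 CPM in pup 3 and 134 CPM in pup 1, Mir144 at 67.1 CPM in pup 3 and 17.1 CPM in pup 1, and Mir223 at 229 CPM in pup 3 and 169 CPM in pup 1. The striated muscle list held 0.0125% in pup 3 and 0.00984% in pup 1, with 3 of its 4 genes at no count. Of these, Mir1a-1 and Mir133a-2 share 20 nt with 2 other loci each, so their multimapped reads would not be counted. Mir206, which shares none, stood at 125 CPM in pup 3 and 98.4 CPM in pup 1. The liver gene held 0.00455% in pup 3 and 0.00419% in pup 1. The part of these cell types in the members' levels or folds was not tested. In bulk tissue, fewer cells of a type and less RNA per cell cannot be told apart.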

How the data were processed

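MicroRNA sequencing of 2 newborn hindbrains was analysed. The deposited tables hold raw read counts per microRNA gene, aligned to mm10 and annotated with GENCODE M4, per the file listings deposited beside them. The aligner, counter and trimming of adapters were not stated in those listings or the labels. Each table has 3 unlabelled count columns, and the first equals the sum of the others. The column with almost every count of the abundant genes was read as same-strand and used throughout. Opposite-strand counts of the members were 2 in pup 3 and 1 in pup 1 for Mir335 and 0 for the others. The 4 rows that name no gene held 58.0% of reads in pup 3 and 57.7% in pup 1 and were left out of totals.

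Symbols and positions came from GENCODE M21 (1894 of 1973 rows matched). TMM and the coefficient of variation came from edgeR 4.0.16 (R 4.3.3), and intervals and binomial tests from scipy 1.17.1, with a prior of 0.5 counts for folds. The quasi-likelihood test of edgeR could not be run with 1 library per side. Alternatives used plain totals, DESeq2 1.42.0 size factors, other filters and columns. On simulated data with counting error only, the test called 79 of 95 genes with a 2-fold change and 75 of 96 with a 1.5-fold change. It called 3 of 188 genes without any change, among 379 tested. Changes below 1.5-fold, as seen for Mir335, Mir298 and Mir483, were not simulated. Pups were not one library counted again (chi-square 49286 on 394 degrees of freedom). Intervals and floors cover the counting error of reads only. Reads carry no molecular identifiers, so copies of a molecule could not be told apart, which the intervals do not allow for. The members, comparison lists and marker lists were chosen with earlier results of these data known. All 5 members are named, with the 2 genes above and below each in mean CPM, the 3 highest genes of the Dlk1-Dio3 list and, from marker lists, Mir10a and Mir126a, each the highest of its list. The 3 blood genes, further genes of the hindbrain and neuronal list and of the striated muscle list, and the 3 pairs closest in level were named after their values were seen. Some genes of the hindbrain and neuronal list and of the striated muscle list were not named.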

Additional observations from a re-analysis of the deposited data

How the results depend on the processing

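The 5 members kept the sign of their log2 folds under plain totals, DESeq2 size factors, other count filters, either-strand counts and a prior of 2 counts. Mir296 passed the exact binomial test with plain totals (log2 fold 0.10) and with DESeq2 size factors (0.067), and its adjusted p over all alternatives lay between 2.62e-05 and 0.288. Members called were then 5. Genes called in the whole table numbered 177 to 196 under the alternatives. With CPM computed over all reads, a denominator that holds unmapped and multimapped reads, mean levels were 13830 for Mir335, 1282 for Mir296, 1190 for Mir298, 104 for Mir483 and 3.21 for Mir675, and the members' share was 1.64%. Without Mir335, a setting added after seeing the data, the share was 0.612%. Leaving out genes that share 20 nt with another precursor, which ranks fewer genes, gave ranks of 4 for Mir335, 56 for Mir296, 59 for Mir298, 141 for Mir483 and 250 for Mir675. With 1 pup left out, ranks were 5 to 6 for Mir335, 62 to 66 for Mir296, 66 to 67 for Mir298, 177 to 183 for Mir483 and 307 to 354 for Mir675, the mean CPM of Mir675 was 4.65 to 10.6, and no fold can be had. No paired analysis was possible because there is 1 group. Depth limits Mir675, with at most 26 counts in a library.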
